A study of Homo sapiens with 8 samples.

Results

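Ferritin stores iron inside the cell and the transferrin receptor brings it in, and the mRNAs of both are classic targets of the iron regulatory proteins. The 5 genes described here were chosen by name from this circuit: FTH1 and FTL, the ferritin heavy and light chains, TFRC, the transferrin receptor, and ACO1 and IREB2, which encode the iron regulatory proteins IRP1 and IRP2. All 5 were among the 10105 genes of the count table. They were followed in HEK293T cells, a human embryonic kidney line, either wild type (WT) or XRN1-null. XRN1 is the main cytoplasmic 5′–3′ exoribonuclease, and the XRN1-null cells were 1 line made by CRISPR/Cas9 editing with a guide to exon 6 of the gene. Each genotype was harvested 24 h after plating on 15 cm dishes and profiled by RNA-Seq, which counts mRNA, and by Ribo-Seq, which counts ribosome-protected fragments (RPFs), with 2 biological replicates each, or 8 libraries in all. No iron salt, chelator or other agent is named for any library, so that the response of these genes to iron itself was not measured. All differences below are therefore between 2 cell lines of different genotype, and each p-value measures only the spread between these libraries.

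When cellular iron is low, IRP1 and IRP2 bind the iron-responsive element (IRE), a short RNA hairpin with a conserved loop and an unpaired C in its stem. Bound near the cap of a ferritin mRNA, they hold back the start of translation. Bound in the TFRC 3′ untranslated region (UTR), they shield the mRNA from endonucleolytic cleavage. When iron is plentiful, IRP1 takes up an iron-sulfur cluster and works as a cytosolic aconitase, whereas IRP2 is ubiquitinated by FBXL5 and degraded. Ferritin synthesis is thus classically set by translation and receptor synthesis by mRNA stability.

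The hairpins are shown because they are the shared feature that defines the circuit. Gene models of the GRCh37 genome were searched on the transcribed strand for an unpaired C, 5 bases, the loop CAGTGN with a last base other than G, and 5 bases that pair fully with the first 5, with at least 4 of 5 pairs in the stem below the C. The capitals mark the 6-base loop, and the letters are those of the DNA sense strand, 5′ to 3′.
FTH1 5′ UTR, chr11:61735047-61735073, minus strand: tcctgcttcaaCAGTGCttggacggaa
FTL 5′ UTR, chr19:49468593-49468619, plus strand: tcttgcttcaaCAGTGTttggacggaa
TFRC element 1, 3′ UTR, chr3:195777851-195777877, minus strand: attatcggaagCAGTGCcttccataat
TFRC element 2, 3′ UTR, chr3:195777447-195777473, minus strand: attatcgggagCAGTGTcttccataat
TFRC element 3, 3′ UTR, chr3:195777382-195777408, minus strand: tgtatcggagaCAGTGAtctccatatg
TFRC element 4, 3′ UTR, chr3:195777335-195777361, minus strand: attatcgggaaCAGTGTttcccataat

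Each ferritin mRNA held 1 match, which began 33 nt from the cap in FTH1 and 27 nt from it in FTL. These 2 elements were identical at 25 of 27 positions and differed by C3T and C17T, with positions counted from the 5′ end of the element and the FTH1 base given first. TFRC held 4 matches, which began 935, 1339, 1404 and 1451 nt after the stop codon. The TFRC elements were identical to one another at 17 to 25 positions over their 6 pairs, and to the ferritin elements at 9 to 13. ACO1 and IREB2 held no match to these letters in the gene models searched. The pattern is rare: a 5′ UTR match was found in 4 of 19869 coding genes, or 0.0201%, and in 2 of the 9323 genes of the count table that could be searched, or 0.0215%. Those 2 were FTH1 and FTL. A 3′ UTR match was found in 9 coding genes, or 0.0453%, and in 5 searched genes of the table, or 0.0536%. A match describes the letters and does not show that a protein was bound.

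FTH1 lies at chr11:61727190-61735106 on the minus strand (GRCh37) and FTL at chr19:49468566-49470136 on the plus strand. TFRC lies at chr3:195739382-195809024 on the minus strand, ACO1 at chr9:32384601-32454767 and IREB2 at chr15:78729773-78793795, both on the plus strand. The ferritin mRNAs are the short ones, with deposited gene widths of 1229 nt for FTH1 and 871 nt for FTL, against 3620 nt for ACO1, 5295 nt for TFRC and 7243 nt for IREB2. The ACO1 width is well under the 7443 nt of the reference transcript used here, so its levels per length depend on the gene model. Ferritin genes also have many processed copies: 25 annotated pseudogenes carry the FTH1 name and 16 the FTL name, none of which was in the count table. Of all 30-nt windows in the coding sequence, 90.2% in FTH1 and 58.5% in FTL occurred elsewhere in the genome as well, against 0.629% in IREB2 and 0 in TFRC and ACO1. How reads with several matching places were counted is not given in the sources used here, so the ferritin counts are uncertain to that extent. BEST1 overlaps FTH1 on the other strand, and ARL8BP1, RNU7-18P and an unnamed annotated gene overlap TFRC there. Another unnamed gene overlaps IREB2 on the other strand. Whether counting used the strand is likewise not given, and reads from such overlaps cannot be told apart.

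The RNA-Seq libraries held 33757487 to 38145433 counts and the Ribo-Seq libraries 1921641 to 4399542, and the standard errors given below were larger for footprints than for mRNA. XRN1 itself was read first, as a check of the labels. Its RNA-Seq counts were 1187 and 1084 in WT against 10655 and 9834 in XRN1-null cells, and its RPF counts were 66 and 217 in WT against 91 and 59 in XRN1-null cells. After scaling for depth, XRN1 mRNA was 3.01 log2 units higher (edgeR quasi-likelihood test, Benjamini-Hochberg FDR = 1.92e-06), RPFs changed by -1.08 (FDR = 0.00641, above the threshold of 0.005 and so not called) and translational efficiency (TE) was changed by -4.09 (FDR = 1.66e-06). Without WT Ribo-Seq replicate 1 or XRN1-null Ribo-Seq replicate 1 the RPF change was called, at -1.26 and -1.23, as it was with the replicate number as a block (-1.05, edgeR FDR = 1.75e-06), with library totals (-1.06, edgeR FDR = 0.0042) and with an offset for gene width (-1.31, edgeR FDR = 0.00108). These counts cover the whole gene, not the edited exon alone. Of 6 genes listed as HEK293 markers, 5 were in the table, and 1 of them, NEFM, was called lower in XRN1-null mRNA, beside 23.2% of all genes. None of 7 erythroid and blood cell markers and none of 5 liver markers was in the table, which the authors had limited to genes with FPKM above 2. The culture is 1 cell line, but in any bulk sample fewer expressing cells and less RNA per cell cannot be told apart.

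Ferritin mRNAs were among the most abundant in the cells. Per length, as RPKM (counts scaled to a TMM-adjusted library total of 1000000, or CPM, per kilobase of deposited width), FTH1 mRNA stood at 928 and 839 in the WT replicates and at 582 and 554 in the XRN1-null replicates. FTL mRNA stood at 804 and 755 in WT against 452 and 451 in XRN1-null cells. The median gene was at 15.0 RPKM in WT and 15.9 in XRN1-null cells, and FTH1 ranked 72 and FTL 85 of 10105 genes by mean WT mRNA. In XRN1-null cells they ranked 88 and 109. TFRC mRNA, at 39.6 and 41.7 RPKM in WT against 44.4 and 42.0 in XRN1-null cells, was far less abundant, with WT FTL 19.2-fold above it. IREB2 mRNA was at 32.9 and 31.5 RPKM in WT against 29.9 and 29.2 in XRN1-null cells. ACO1 mRNA was the least abundant of the 5, at 12.2 and 15.9 RPKM in WT against 16.2 and 17.6 in XRN1-null cells, close to the median gene. The mRNA order FTH1, FTL, TFRC, IREB2, ACO1 was the same in both genotypes, and no 2 neighbours in it overlapped between replicates. The closest neighbours were the ferritin chains, with FTH1 1.13-fold above FTL in WT and 1.26-fold above it in XRN1-null cells.

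Among footprints the order differed at the top. FTL led with 449 and 332 RPKM in WT against 278 and 300.3 in XRN1-null cells. FTH1 followed with 367 and 287 RPKM in WT against 301 and 248 in XRN1-null cells. The 2 ferritin chains overlapped between replicates in either genotype, so their footprint order was not resolved. TFRC footprints were at 64.6 and 66.2 RPKM in WT against 74.9 and 71.3 in XRN1-null cells. IREB2 footprints were at 25.8 in both WT replicates and at 28.9 in both XRN1-null replicates. ACO1 footprints were at 18.8 and 22.6 RPKM in WT against 25.2 and 22.8 in XRN1-null cells. The gap between ferritin and receptor was much narrower in footprints than in mRNA, with FTH1 5.0-fold above TFRC in WT footprints and 3.76-fold above it in XRN1-null footprints. TFRC, IREB2 and ACO1 kept their mRNA order, and no 2 of them overlapped.

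The comparison of genotypes addressed how loss of XRN1 bears on mRNA abundance, footprints and their ratio. Both ferritin mRNAs were less abundant in XRN1-null cells and passed the test, which called a gene at an FDR below 0.005 over all genes. FTH1 counts were 40372 and 33852 in WT against 27082 and 26490 in XRN1-null cells, and the fitted level fell by 0.64 on the log2 scale (SE 0.071), or to a level 1.55-fold lower (edgeR, FDR = 0.000189). FTL counts were 24791 and 21587 in WT against 14906 and 15293 in XRN1-null cells, and the level fell by 0.79 (SE 0.0636), or to a level 1.73-fold lower (edgeR, FDR = 4.61e-05). For either gene both XRN1-null libraries lay below both WT libraries. Of all genes, 7.71% had a lower value than FTH1 and 4.08% a lower value than FTL. The 2 ferritin mRNAs were the only genes of the 5 called in mRNA, against 23.2% of the table called lower, 22.9% higher and 46.1% in either direction, so a call in mRNA was common in these data. Both calls held without each library in turn, with log2 changes of -0.71 to -0.54 for FTH1 and -0.83 to -0.72 for FTL.

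The receptor and the regulators did not pass the test in mRNA. TFRC counts were 7433 and 7257 in WT against 8904 and 8665 in XRN1-null cells, with a log2 change of 0.088 (SE 0.0661, edgeR FDR = 0.269) that ranged from 0.047 (without XRN1-null RNA-Seq replicate 1) to 0.13 (without XRN1-null RNA-Seq replicate 2), never called. The XRN1-null libraries lay above the WT libraries after scaling for depth, though by little, at 235 and 223 CPM against 210 and 221. ACO1 counts were 1569 and 1891 in WT against 2216 and 2487 in XRN1-null cells, with a log2 change of 0.27 (SE 0.119, edgeR FDR = 0.081). Its WT replicates differed from each other, at 44.3 and 57.6 CPM, by more than the second stood below the lower XRN1-null replicate at 58.6 CPM. Without WT RNA-Seq replicate 2 the ACO1 change was 0.47, and without WT RNA-Seq replicate 1 it was 0.11. IREB2 counts were 8430 and 7498 in WT against 8181 and 8221 in XRN1-null cells, with a log2 change of -0.13 (SE 0.0623, edgeR FDR = 0.109). Its XRN1-null libraries, at 216 and 211 CPM, lay below the WT libraries at 238 and 228. The IREB2 change was -0.16 without WT RNA-Seq replicate 2 and -0.075 without WT RNA-Seq replicate 1. Libraries of the genotypes did not overlap for any of the 5 genes in mRNA, 2 higher and 3 lower in XRN1-null cells, and this was also so, in 1 or the other direction, for 41.0% (higher) and 43.7% (lower) of all genes.

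None of the 5 genes passed the test in footprints. FTH1 RPF counts were 866 and 1536 in WT against 1490 and 977 in XRN1-null cells, which came to 451 and 353 CPM against 370.0 and 305 CPM. The genotypes overlapped, and the log2 change was -0.25 (SE 0.159, edgeR FDR = 0.3). FTL RPF counts were 750 and 1258 in WT against 975 and 838 in XRN1-null cells, or 391 and 289 CPM against 242 and 262 CPM. Both XRN1-null libraries lay below the WT libraries, with a log2 change of -0.43 (SE 0.161, edgeR FDR = 0.0902). Both values moved with the WT Ribo-Seq replicates, which differed from each other, and the FTH1 value also with the XRN1-null ones. Without XRN1-null Ribo-Seq replicate 1, FTH1 changed by -0.40 and FTL by -0.37. Without XRN1-null Ribo-Seq replicate 2, the values were -0.12 and -0.49, in that order. Without WT Ribo-Seq replicate 2, FTH1 changed by -0.40 and FTL by -0.62. Without WT Ribo-Seq replicate 1, the values were -0.054 for FTH1 and -0.20 for FTL.

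The other 3 genes had slightly more footprints in XRN1-null cells, with no overlap between genotypes and no call. TFRC RPF counts were 657 and 1526 in WT against 1597 and 1209 in XRN1-null cells, or 342 and 351 CPM against 397 and 377 CPM, a log2 change of 0.16 (SE 0.13, edgeR FDR = 0.418). ACO1, with only 131 and 356 counts in WT against 367 and 264 in XRN1-null cells, changed by 0.19 (SE 0.148, edgeR FDR = 0.381), with 0.095 without WT Ribo-Seq replicate 1 and 0.36 without WT Ribo-Seq replicate 2 (edgeR FDR = 0.045), neither called. IREB2 counts were 359 and 813 in WT against 843 and 670 in XRN1-null cells, or 187 CPM in both WT libraries against 209 in both XRN1-null libraries, a log2 change of 0.16 (SE 0.134, edgeR FDR = 0.421). The edgeR test called 0 of the 5 in RPFs, where 0.633% of all genes were called higher, 1.14% lower and 1.77% in either direction. At an unadjusted p below 0.05 there was 1, FTL, beside 3336 of all 10105 genes, and DESeq2 called 0. Libraries did not overlap in RPFs for 32.1% (higher) and 32.3% (lower) of all genes.

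**Figure D1:**
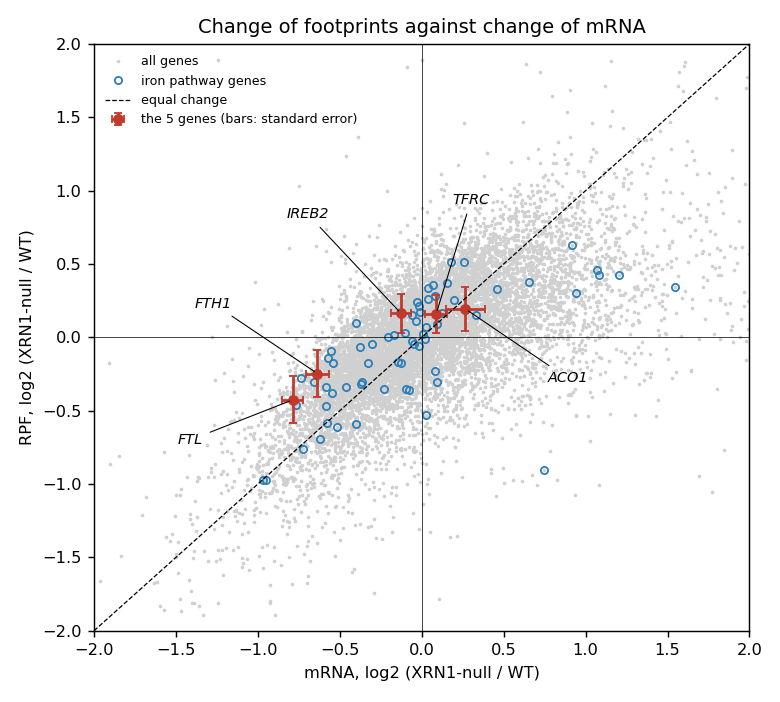
Log2 change of footprints (vertical) against log2 change of mRNA (horizontal), XRN1-null over WT, for all genes in grey, the listed iron genes as open blue circles and the 5 genes in red with standard errors, and a dashed line where both changes are equal. The axes stop at 2 log2 units and leave out 99 genes. FTH1 at -0.64 and -0.25 and FTL at -0.79 and -0.43 lie above the dashed line on the left, and TFRC, ACO1 and IREB2 lie near the centre.

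TE, the RPF CPM divided by the mRNA CPM of the library with the same replicate number, separated the ferritin mRNAs from the receptor in both genotypes. FTH1 TE was 0.396 and 0.342 in WT against 0.517 and 0.448 in XRN1-null cells. FTL TE was 0.558 and 0.440 in WT against 0.614 and 0.666 in XRN1-null cells. The median gene was at 0.821 in WT and 0.798 in XRN1-null cells, so both ferritin mRNAs had fewer footprint counts per mRNA count than most genes. Of 30-nt windows, 61.8% in the whole FTH1 transcript and 53.8% in that of FTL occurred elsewhere in the genome, against 90.2% and 58.5% in the coding sequence, and the part of multiply mapping reads in these TE levels was not tested. Their percentiles among 10092 genes were 10.9 for FTH1 and 21.2 for FTL in WT, with 23.8 and 37.8 in XRN1-null cells. TFRC stood at the other end, with a TE of 1.63 and 1.59 in WT against 1.68 and 1.70 in XRN1-null cells, higher than in most genes. ACO1 was also high, at 1.54 and 1.42 in WT against 1.56 and 1.29 in XRN1-null cells. IREB2 lay in the middle, at 0.786 and 0.818 in WT against 0.968 and 0.990 in XRN1-null cells.

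Footprints come from the coding sequence whereas mRNA reads come from the whole transcript, so a long UTR lowers this ratio. Dividing footprints by coding length and mRNA by transcript length gave mean WT values of 0.809 for FTH1, 0.828 for FTL, 3.54 for TFRC, 4.13 for ACO1 and 1.76 for IREB2, against 1.72 for the median gene. On this scale FTH1 was at percentile 13.7, FTL at 14.3, TFRC at 82.7 and ACO1 at 86.6. The ferritin chains remained below the median gene and TFRC above it, while IREB2 moved from just below it to just above it. ACO1 also stood above it, but its deposited width of 3620 nt is well under the 7443 nt of the transcript used here. With the deposited width its value on this scale would be lower, so its place depends on the gene model.

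Tested as the difference between the RPF and mRNA changes, the genotype difference in TE passed the threshold for none of the 5 genes. The TE change was 0.39 for FTH1 (SE 0.182, edgeR FDR = 0.218) and 0.36 for FTL (SE 0.179, edgeR FDR = 0.248), with no overlap of the genotypes for either. IREB2 had a TE change of 0.29 (SE 0.128, edgeR FDR = 0.199), also without overlap. TFRC, at 0.071 (SE 0.131, edgeR FDR = 0.795), moved by less than its error although its libraries did not overlap, and ranged from 0.032 (without XRN1-null RNA-Seq replicate 2) to 0.11 (without XRN1-null RNA-Seq replicate 1). ACO1, at -0.081 (SE 0.193, edgeR FDR = 0.845), had overlapping libraries, and its sign turned without WT RNA-Seq replicate 1 (0.069) or WT Ribo-Seq replicate 2 (0.096). The edgeR test called 0 of the 5, against 0.0495% of genes called higher, 1.78% lower and 1.83% in either direction. At an unadjusted p below 0.05 there was 1, IREB2, beside 2356 of all 10105 genes, and DESeq2 called 0. TE libraries did not overlap for 28.8% (higher) and 27.8% (lower) of all genes. Leaving out each library in turn moved the ferritin TE changes over a wide range, from 0.23 (without WT Ribo-Seq replicate 2) to 0.58 (without WT Ribo-Seq replicate 1) for FTH1 and from 0.16 to 0.59, without the same libraries, for FTL, and none of these values was called.

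Ratios within a library need no scaling for depth, and a fixed gene length cancels in their difference between genotypes, although a change that itself moves with width does not. The FTH1 to FTL ratio, of the heavy to the light chain of ferritin, was 1.63 and 1.57 in WT mRNA counts and 1.82 and 1.73 in XRN1-null counts. The log2 ratio was 0.15 higher in XRN1-null cells without overlap (two-sided exact permutation p = 0.333). In footprints it was 1.15 and 1.22 in WT against 1.53 and 1.17 in XRN1-null cells, which overlapped (log2 difference 0.17, exact permutation p = 0.667). The sign turned without XRN1-null Ribo-Seq replicate 1 (-0.026), and the difference was 0.36 without XRN1-null Ribo-Seq replicate 2. The TFRC to FTH1 ratio, of iron uptake to iron storage mRNA, was 0.184 and 0.214 in WT mRNA counts and 0.329 and 0.327 in XRN1-null counts, a log2 difference of 0.72 (exact permutation p = 0.333). In footprints it was 0.759 and 0.993 in WT against 1.07 and 1.24 in XRN1-null cells, a log2 difference of 0.41 (exact permutation p = 0.333). The footprint difference ranged from 0.21 (without WT Ribo-Seq replicate 1) to 0.60 (without WT Ribo-Seq replicate 2). TFRC and FTH1 differ in width, at 5295 against 1229 nt, and with an offset for width in the fit, chosen after seeing the data, the log2 differences were 0.30 in mRNA and 0.062 in footprints. The IREB2 to ACO1 ratio, of IRP2 to IRP1 messages, was 5.37 and 3.97 in WT mRNA counts and 3.69 and 3.31 in XRN1-null counts, a log2 difference of -0.40 (exact permutation p = 0.333), with -0.62 without WT RNA-Seq replicate 2 and -0.18 without WT RNA-Seq replicate 1. With the width offset it was -0.63. In footprints it was 2.74 and 2.28 against 2.30 and 2.54, which overlapped (log2 difference -0.051, exact permutation p = 1). The sign turned without WT Ribo-Seq replicate 1 (0.080) or XRN1-null Ribo-Seq replicate 1 (0.021), the difference was -0.18 without WT Ribo-Seq replicate 2 and -0.12 without XRN1-null Ribo-Seq replicate 2, and the offset gave -0.19. For FTH1 to FTL the offset gave 0.041 in mRNA and 0.10 in footprints. With 2 libraries against 2, the smallest two-sided p of this test is 0.333, so that it cannot pass a threshold of 0.05.

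The change between genotypes moved with gene width over the whole table. Across the 10105 genes, which are not independent replicates and share the 8 libraries, Spearman's rho between width and log2 change was 0.350 for mRNA, 0.314 for RPFs and -0.123 for TE. FTH1 and FTL are among the 1010 genes of the lowest width group (111 to 1327 nt), whose median log2 change was -0.40 in mRNA, -0.27 in RPFs and 0.095 in TE. Both ferritin mRNAs fell further than that median. The FTH1 RPF change lay close to it, the FTL RPF change below it and both TE changes above it. IREB2 is among the 1012 genes of the highest width group (6993 to 24674 nt), whose median mRNA change was 0.35, against -0.13 for IREB2. With an offset for width in the fit, which was chosen after seeing the data, FTH1 mRNA changed by -0.35 (edgeR FDR = 0.00235) and FTL mRNA by -0.39 (edgeR FDR = 0.000652), both smaller in size and both called. IREB2 mRNA was then called lower, at -0.38 (edgeR FDR = 0.00134), while the TFRC value turned from 0.088 to -0.055 and ACO1 remained at 0.25, neither called. In that fit 20.4% of all genes were called higher and 19.3% lower in mRNA. In RPFs the offset left -0.014 for FTH1, -0.11 for FTL, 0.048 for TFRC and -0.016 for IREB2, none called. The TE changes were little affected, at 0.34 for FTH1, 0.28 for FTL and 0.36 for IREB2. The part of width in these results was not tested further.

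Genes with the pattern most like each of the 5 were ranked by the root mean square difference of log2 levels over the 8 libraries. Each gene was centred on its own mean over all 8 libraries, so a different ratio of footprints to mRNA also adds to the distance. The genes nearest to FTH1 were CHST15 (0.0449) and INSIG1 (0.0620), against a median of 0.653 over all genes. FTL, its partner in the ferritin shell, came only at place 453 (0.246), with a mean WT TE of 0.499 against 0.369 for FTH1. The genes nearest to FTL were ASF1B (0.0649) and KATNBL1 (0.0714). TFRC was nearest to SUCLG1 (0.0441) and IPP (0.0658), ACO1 to CHEK2 (0.0575) and PFKP (0.0584), and IREB2 to ACBD6 (0.0346) and MPV17 (0.0537). Such nearness describes these 8 libraries only.

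Other mRNAs known or proposed to carry an IRE included genes called in either direction. Of 9 listed, 6 were in the table, with 1 called higher and 1 lower in mRNA, beside 22.9% and 23.2% of all genes, and a median log2 change of 0.038, against -0.015 for all genes. Without WT RNA-Seq replicate 2 the count called higher was 2, beside 33.7% of all genes called higher in that fit, and with the width offset, where SLC11A2 was called too, the count called lower was 2, beside 19.3%. CDC42BPA, a kinase that acts on the actin cytoskeleton, rose by 1.07 in mRNA (edgeR FDR = 1.35e-05), from 113 and 110 CPM in WT to 237 and 232 CPM, and with the width offset by 0.64, still called. PFN2, an actin-binding profilin, fell by 0.74, from 298 and 276 CPM to 174 and 171 CPM. Among those not called in mRNA were SLC11A2, the iron transporter DMT1 (-0.10), EPAS1, which encodes the hypoxia factor HIF-2α (0.18), and APP, the amyloid precursor (-0.048). Among the other genes with a 3′ UTR match to the hairpin pattern, AGO3 (0.73), PDK1 (0.89) and TLDC2 (0.97) were called higher in mRNA.

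Of 5 genes for IRP2 degradation, 1 was called higher and 2 lower in mRNA, beside 46.1% of all genes called in either direction. Without XRN1-null RNA-Seq replicate 1 the count called lower was 0, and without replicate 2 it was 1, as it was with the width offset. In these fits 1113, 1097 and 1947 of all 10105 genes, in that order, were called lower. Without WT RNA-Seq replicate 2 the count called higher was 2, CUL1 being the second, beside 33.7% of all genes. FBXL5, the iron-sensing subunit that recognises IRP2, had an mRNA change of 0.025 and its scaffold CUL1 of 0.070, neither called. SKP1 (-0.38) and RBX1 (-0.58), the adaptor and the RING subunit of the same ligase, fell. The SKP1 call was lost without XRN1-null RNA-Seq replicate 1 (-0.37) or 2 (-0.38), although the change was of like size. The RBX1 call was lost without XRN1-null RNA-Seq replicate 1 (-0.51) or with the width offset (-0.20). HERC2, a large ubiquitin ligase reported to act on FBXL5 and NCOA4, rose by 1.55 in mRNA, from 59.0 and 58.8 CPM to 176 and 168 CPM, and by 0.90 with the width offset, still called. Its RPFs changed by 0.34 without a call, and its TE fell by 1.21 (edgeR FDR = 0.000498). The TE call was lost without XRN1-null Ribo-Seq replicate 1 (-1.25) or 2 (-1.17), although the change was of like size. None of 4 genes of ferritin turnover and transcription was called in mRNA, RPFs or TE by edgeR as fitted here. At an unadjusted p below 0.05 there were 1 higher and 1 lower in mRNA, 1 higher and 1 lower in RPFs and 0 in TE, where 7066, 3336 and 2356 of all 10105 genes were, in either direction. DESeq2 called 0 in RPFs and TE and 1 higher in mRNA, TAX1BP1, which edgeR also called in mRNA with library totals, with the replicate block and without either WT RNA-Seq replicate. The mRNA changes were -0.033 for NCOA4, the receptor that delivers ferritin to autophagy, 0.26 for TAX1BP1, an autophagy receptor, -0.17 for NFE2L2, which activates ferritin transcription, and -0.096 for KEAP1, its inhibitor. Of the TFRC mRNA decay genes, RC3H1, which encodes the RNA-binding protein Roquin-1, rose by 0.75 in mRNA, or by 0.28 without a call under the width offset. Its RPF change of -0.90 was not called, with WT Ribo-Seq replicate 1 at 96.9 CPM against 24.8 to 30.3 CPM in the other 3 libraries. Its paralog RC3H2 had an mRNA change of -0.057.

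Of 18 iron transport and chaperone genes, 9 were in the table, with 1 called higher, 2 lower and 6 not called in mRNA, beside 22.9% higher and 23.2% lower of all genes. Without WT RNA-Seq replicate 2 the count called higher was 2, beside 33.7% of all genes. MCOLN1, a lysosomal channel that passes iron, rose by 0.65 in mRNA, whereas STEAP3, an endosomal ferrireductase that works with the transferrin receptor, fell by 0.54 and SLC39A14, a metal importer, fell by 0.58. Of 16 heme genes, 14 were in the table, with 2 called higher, 3 lower and 9 not called, beside the same shares. ALAD (0.92) and PPOX (0.94), both enzymes of heme synthesis, rose, while UROS (-0.77), another such enzyme, and the heme oxygenases HMOX1 (-0.73) and HMOX2 (-0.66) fell. All 25 iron-sulfur cluster assembly genes were in the table, with 3 called higher, 12 lower and a median mRNA change of -0.33, beside 22.9% called higher, 23.2% lower and -0.015 for all genes. The count called lower was 7 without XRN1-null RNA-Seq replicate 1 and 8 without XRN1-null RNA-Seq replicate 2 or with the width offset. In these fits 1113, 1097 and 1947 of all 10105 genes, in that order, were called lower. The count called higher was 6 without WT RNA-Seq replicate 2, beside 33.7% of all genes. The members that rose were NDOR1 (1.21) and MMS19 (1.08), of the cytosolic assembly pathway, and IBA57 (0.46), of the mitochondrial one. The IBA57 call was lost without XRN1-null RNA-Seq replicate 1 (0.47) or 2 (0.45) or with the width offset (0.17). The largest decreases were those of FAM96B (-0.97), of the cytosolic targeting complex, BOLA3 (-0.95), a mitochondrial cluster transfer factor, and NUBP1 (-0.62), a cytosolic scaffold, whose call was lost with the width offset. FAM96B and BOLA3 remained called with it, at -0.57 and -0.41. FAM96B was the one listed gene called lower in RPFs (-0.98, edgeR FDR = 0.00296). That call was lost without XRN1-null Ribo-Seq replicate 1 (-0.99) or 2 (-0.97) or with the width offset (-0.68).

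Over the 7 lists, 65 of 80 genes were in the table. In mRNA 9 of them, or 13.8%, were called higher and 20, or 30.8%, lower, beside 22.9% and 23.2% of all genes, and the median change was -0.057. Without XRN1-null RNA-Seq replicate 1 the count called lower was 13, beside 1113 of all 10105 genes, and without WT RNA-Seq replicate 2 the count called higher was 17, beside 33.7%. In RPFs edgeR called 0 higher (10 of 65 at an unadjusted p below 0.05, beside 16.2% of all genes, and 0 by DESeq2) and 1 lower. Without WT Ribo-Seq replicate 1 there were 1 higher and 7 lower, beside 588 and 707 of all 10105 genes. Without WT Ribo-Seq replicate 2 there were 7 higher and 9 lower, beside 12.7% and 10.8% of all genes. Without XRN1-null Ribo-Seq replicate 2 there were 0 lower, beside 0.980% of all genes. In TE edgeR called 0 higher (7 of 65 at an unadjusted p below 0.05, beside 8.76% of all genes, and 0 by DESeq2) and 1 lower, which was 2 without WT Ribo-Seq replicate 2, beside 0.940% of all genes, and 0 without XRN1-null Ribo-Seq replicate 1 or 2, beside 0.188% and 0.455%.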

How the data were processed

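RNA-Seq and Ribo-Seq counts of 4 libraries each were analysed, grouped by the genotype and assay in the labels. Per the study's methods, Bowtie2 was used by the authors to filter out rRNA reads and TopHat2 to align the others to hg19. They kept footprints of 29 and 30 nt and genes with FPKM above 2, and the deposited table holds raw counts, made by the authors with QuasR, for 10105 genes with a width for each. The annotation, strand setting and handling of multiply mapping reads are not given in the sources used here. Tables of the authors' own differential expression and TE results (fold changes and p-values) were not used.

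Counts were scaled by TMM within each assay and fitted with edgeR 4.0.16 (R 4.3.3), genotype as the only term. TE was the assay-by-genotype interaction over all 8 libraries. A gene was called at a Benjamini-Hochberg FDR below 0.005 over all genes. Scripts were tested on simulated data. Alternatives were DESeq2 1.42.0, other size factors, a minimum of 10 counts, an FDR of 0.05, replicate blocks, each library left out, and a loess offset for width added after seeing the data. The named genes were the 5 genes, XRN1, all listed genes that were called (3 in each direction where over 6 were called in a list), the genes of the 4 lists nearest to the circuit, and 2 genes most alike per gene. AGO3, PDK1, TLDC2 and NEFM were named after their values were seen. The genes and lists were chosen with earlier results of these data known. Hairpins were searched in GENCODE transcripts lifted to GRCh37. Some items that these rules name are not reported here.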

Additional observations from a re-analysis of the deposited data

How the results depend on the processing

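The mRNA calls of FTH1 and FTL were kept under every alternative run, and neither gene, nor TFRC, ACO1 or IREB2, was called in TE under any. The width offset turned TFRC mRNA to -0.055 and IREB2 RPFs to -0.016. It brought IREB2 mRNA to -0.38, now called, beside 19.3% of all genes called lower in that fit. Leaving out single libraries, with a lone library assumed to vary like the others, gave -0.40 to -0.054 for FTH1 and -0.62 to -0.20 for FTL in RPFs, 0.11 to 0.47 for ACO1 and -0.16 to -0.075 for IREB2 in mRNA, -0.29 to 0.096 for ACO1 TE, -0.026 to 0.36 for the FTH1 to FTL and -0.18 to 0.080 for the IREB2 to ACO1 footprint log2 ratio difference. XRN1 RPFs ranged from -1.26 to -0.72. Dividing by coding and transcript length moved WT TE to 0.809 (FTH1), 0.828 (FTL), 3.54 (TFRC), 4.13 (ACO1) and 1.76 (IREB2). The ACO1 value used a transcript of 7443 nt, longer than its deposited width of 3620 nt.

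Counts over all genes in RPFs, 64 higher and 115 lower, became 714 and 847 at an FDR of 0.05 and 133 higher with library totals. Counts in TE, 5 higher and 180 lower, became 103 and 653 at an FDR of 0.05 and 33 and 450 with DESeq2. Of the listed genes, 1 higher and 8 lower in RPFs and 5 lower in TE were called at an FDR of 0.05, 3 lower in TE with DESeq2, and 0 lower in RPFs with the width offset. Without single libraries, 1097 to 3389 genes were lower in mRNA, 71 to 1282 higher and 72 to 1087 lower in RPFs, and 0 to 9 higher and 19 to 230 lower in TE. For listed genes these ranges were 8 to 17 higher and 13 to 22 lower in mRNA, 0 to 7 and 0 to 9 in RPFs, and 0 to 2 lower in TE. The cause of these moves was not tested.

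Replicate numbers pair the samples only weakly: deviations of equally numbered libraries correlated at 0.190 in RNA-Seq, 0.0803 in Ribo-Seq and 0.0766 in TE, with 2 pairs each, and the labels name no shared batch. With the replicate block, calls in RPFs over all genes became 616 higher and 665 lower (7 lower among listed genes), and with libraries of equal genotype and number as a block, though the labels do not say that they share a culture, calls in TE became 55 higher and 435 lower (3 lower among listed genes). The replicate block brought calls for XRN1 RPFs (-1.05, edgeR FDR = 1.75e-06) and TAX1BP1 mRNA, and it changed no call of the 5 genes, with an edgeR FDR of 0.0058 for ACO1 mRNA and 0.0335 for FTL RPFs, and with that second block 0.0205 for FTH1 and 0.0433 for FTL TE.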
